A study of Mus musculus with 16 samples.

Results

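A set of 10 genes was chosen by name because their proteins sit on the surface of mesothelium or are secreted by it, namely Upk3b, Upk1b, Msln, Muc16, Lrrn4, Gpm6a, Rspo1, C3, Efemp1 and Dmkn. The count table of 15805 genes held rows for 9 of the 10, and all 9 passed the filter on low counts. Dmkn was not analysed here. RNA was sequenced from 16 primary cultures of epicardial tissue from C57BL6 mice, all kept on a collagen gel. In 8 of them myosin II, the motor that pulls on actin filaments, was inhibited with the small molecule blebbistatin, and the remaining 8 served as controls without the drug. The labels write its dose as 20 mM and also as 20 mm, which leaves the concentration unsettled. Neither the age of the mice nor any solvent given to controls is stated in the sources used. No label says whether the explants of a group came from separate animals, so p-values measure the spread between these explants.

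Mesothelium is the single layer of flattened epithelium that lines the body cavities and their organs, and the epicardium is the mesothelium of the heart. Its cells carry glycoproteins on the free surface and secrete proteins that lubricate, signal and feed the matrix below. During development some epicardial cells leave the layer and become mesenchyme, and the surface genes are then commonly used to mark the cells that still belong to the layer. In bulk RNA, fewer mesothelial cells and less RNA per cell cannot be told apart.

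By edgeR 0 of the 9 genes passed the test of blebbistatin against control (0 higher and 0 lower, where 0.255% of all tested genes were called higher and 0.351% lower), but they varied between explants of the same group, and several of them varied together. In controls, though, Msln, Gpm6a and Upk1b varied less than the median of all tested genes. Their spread there still exceeded that of 71.2%, 87.8% and 90.6% of the 500 tested genes nearest in mean level. Of the 9, 8 had a lower and 1 a higher fitted level with blebbistatin, where 8475 of all 15675 tested genes had a higher one. The signs of Gpm6a and Rspo1 turned in some fits with a single library left out. Among Upk3b, Upk1b, Lrrn4 and Gpm6a, Pearson's r passed for all 6 pairs in both groups. For the complement gene C3 no correlation with the other 8 passed in either group.

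Promoter sequences, in which motifs of factors that respond to actin and tension were searched, are shown for 3 of these closely linked genes, Upk3b, Lrrn4 and Gpm6a, and for C3, whose correlations with them did not pass. Each runs from 250 bases before to 50 bases after the gene's start in RefSeq on build GRCm38.p6, on the strand of the gene. Upk3b lies at chr5:136038246-136038545 (plus strand), Lrrn4 at chr2:132880813-132881112 (minus strand), the upstream of 2 Gpm6a promoters, outside the gene as GENCODE M21 draws it, at chr8:54779184-54779483 (plus strand) and C3 at chr17:57228087-57228386 (minus strand). Capitals mark GGAATG on either strand, the core letters bound by TEAD factors, the DNA-binding partners of YAP.
Upk3b: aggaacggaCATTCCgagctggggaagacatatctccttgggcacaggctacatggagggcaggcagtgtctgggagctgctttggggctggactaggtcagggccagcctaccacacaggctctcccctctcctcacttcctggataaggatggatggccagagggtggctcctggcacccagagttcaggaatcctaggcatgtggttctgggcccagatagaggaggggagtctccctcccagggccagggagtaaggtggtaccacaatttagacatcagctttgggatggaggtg
Lrrn4: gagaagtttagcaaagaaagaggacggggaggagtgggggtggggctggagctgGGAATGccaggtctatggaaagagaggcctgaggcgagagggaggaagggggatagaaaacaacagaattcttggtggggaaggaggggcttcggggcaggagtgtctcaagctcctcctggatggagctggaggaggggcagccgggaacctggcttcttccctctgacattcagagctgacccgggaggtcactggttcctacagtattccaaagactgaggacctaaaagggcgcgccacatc
Gpm6a: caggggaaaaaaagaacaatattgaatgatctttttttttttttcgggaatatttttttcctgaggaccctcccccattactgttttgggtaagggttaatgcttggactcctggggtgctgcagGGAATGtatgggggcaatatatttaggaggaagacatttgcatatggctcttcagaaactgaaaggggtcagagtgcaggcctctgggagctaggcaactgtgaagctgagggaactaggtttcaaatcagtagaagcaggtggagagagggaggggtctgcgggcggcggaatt
C3: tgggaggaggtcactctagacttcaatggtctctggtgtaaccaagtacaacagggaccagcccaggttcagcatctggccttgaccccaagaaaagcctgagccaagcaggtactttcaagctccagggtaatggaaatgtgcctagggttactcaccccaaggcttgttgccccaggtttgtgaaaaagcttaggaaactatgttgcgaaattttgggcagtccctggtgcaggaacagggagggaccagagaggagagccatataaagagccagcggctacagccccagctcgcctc

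RefSeq promoters were found for 8 of the 10 genes, not for Upk1b and Msln. GGAATG occurred once each in the promoters of Upk3b, Lrrn4 and Gpm6a, beginning 241, 196 and 125 bases before the start, and in 14.7% of all 32851 promoters of this length. The other Gpm6a promoter, just before the GENCODE M21 gene, and those of C3, Efemp1, Rspo1, Muc16 and Dmkn, did not hold these letters. The AP-1 letters TGANTCA, searched on both strands, occurred in the promoters of Efemp1 and Dmkn and in 7.81% of all promoters. The CArG box, the element bound by serum response factor, occurred in none of the 8 genes' promoters and in 1.63% of all. The motifs were chosen after the sequences had been seen, and a match describes the letters only.

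Levels are given as CPM, the counts of a gene scaled to a fixed library total, after TMM scaling, which adjusts libraries for differences in composition. Summed marker levels and the levels of Ddx3y and Xist are CPM without TMM scaling. Total counts were 20176386 to 89620195 in blebbistatin libraries and 27065611 to 60321622 in controls. Before TMM scaling, 1 CPM therefore equals 20.2 counts in the library of least depth. The 9 genes together held 0.327 ± 0.128% of all counts with blebbistatin and 0.439 ± 0.128% in controls (SD, n = 8 each). Mitochondrial genes held 21.4 ± 3.21% of counts with blebbistatin and 16.4 ± 1.70% in controls (2-sided exact permutation test, p = 0.00326, adjusted over 10 measures 0.0326). With mitochondrial genes left out before scaling, 0 of the 9 genes passed, and no correlation of the 9 with that share passed. Their part in the results was not tested further. Sex-linked transcripts were not balanced between the groups. The Y-linked gene Ddx3y stood at 60.7 CPM or more in 5 of 8 blebbistatin explants (1, 2, 3, 6 and 8), against 56.2 and 83.2 CPM in 2 of 8 controls (5 and 4) and 0.504 CPM or less in all others. Control 5 also held Xist, the transcript of the inactive X, at 342 CPM. With Y-linked expression as a covariate 22 genes passed in the whole table instead of 95, and 0 of the 9, each of which kept its sign. Without control 5 the count among the 9 was also 0. Wt1, the transcription factor most used to define epicardium, was present at 65.5 ± 11.8 CPM with blebbistatin and at 75.5 ± 17.5 CPM in control explants.

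Per kilobase of exon, the uroplakins and Lrrn4 were among the most abundant transcripts of the explants. Upk1b reached 398 ± 168 CPM per kilobase with blebbistatin and 485 ± 128 in controls (SD, n = 8 each), the ranks 57 and 49 of 15537 tested genes with a known length. Lrrn4 stood at 285 ± 152 CPM per kilobase with blebbistatin and 420 ± 184 in controls, at ranks 70 and 54. Upk3b followed at 179.6 ± 96.5 with blebbistatin and 233.5 ± 94.9 in controls, at ranks 132 and 100. Upk1b exceeded Lrrn4 in 7 of 8 libraries of each group, and Lrrn4 exceeded Upk3b in 8 of 8 of each.

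The next places differed between the groups. Msln had 89.3 ± 50.7 CPM per kilobase with blebbistatin and 153 ± 31.5 in controls, and Gpm6a had 97.9 ± 49.1 with blebbistatin and 99.9 ± 24.2 in controls. Gpm6a lay above Msln in 4 of 8 blebbistatin libraries, whereas Msln lay above Gpm6a in 8 of 8 controls. Efemp1 had 31.5 ± 19.7 CPM per kilobase with blebbistatin and 57.2 ± 28.9 in controls. Rspo1 had 29.9 ± 13.3 with blebbistatin and 31.9 ± 11.3 in controls. Efemp1 and Rspo1 were not separated with blebbistatin, where Efemp1 was above in 4 of 8 libraries. C3 was lowest, at 20.6 ± 12.6 CPM per kilobase with blebbistatin and 13.8 ± 5.48 in controls, and Muc16 was not placed because the table's identifier for it has no length in GENCODE M21.

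**Figure D1:**
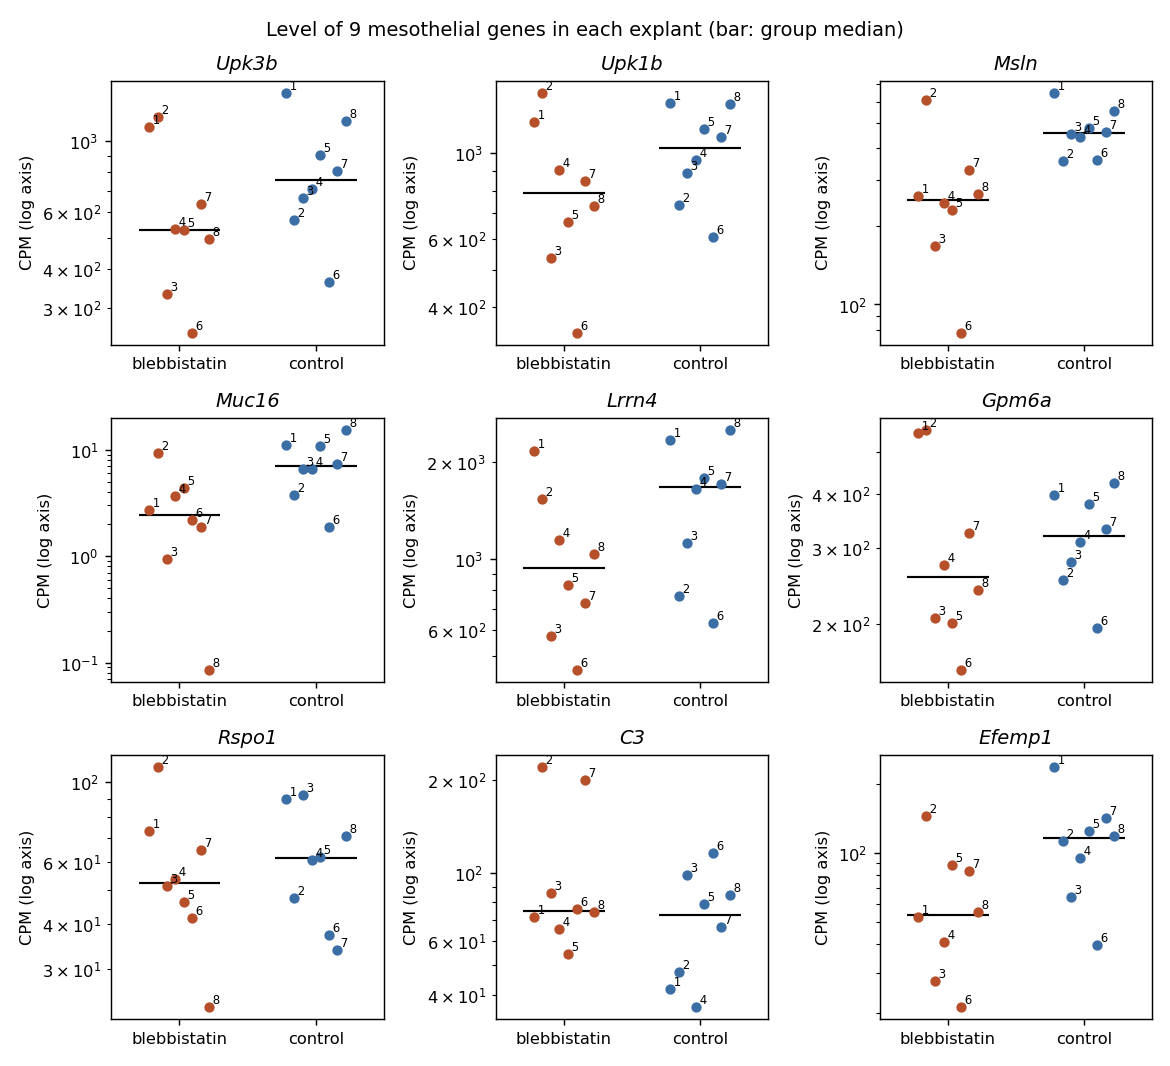
Level of each gene in CPM (log axis, a separate scale for each panel) in 8 blebbistatin explants (left of each panel) and 8 control explants (right), numbered by explant, with the group median as a bar. The groups overlap for all 9 genes, and blebbistatin explant 2 is highest of its group in 8 of 9 panels.

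The uroplakins are membrane proteins first known from the plaques of the bladder surface, where Upk1b, a tetraspanin, pairs with a partner of the Upk3 type. Upk3b (ENSMUSG00000042985, chromosome 5, 136038496 to 136046487) ran from 252 through a median of 529.5 to 1189.9 CPM with blebbistatin, and from 363 through 758 to 1416 CPM in controls. Blebbistatin explants 1 and 2 lay far above the other 6, which all fell under the control median. The groups overlapped, with a log2 fold change of -0.38 (SE 0.30, 95% interval -1.01 to 0.25, adjusted p = 0.661 by edgeR's quasi-likelihood test). Upk1b (ENSMUSG00000049436, chromosome 16, 38773184 to 38800328) ran from 344 through 788 to 1426 CPM with blebbistatin and from 606 through 1027 to 1341 CPM in controls (log2 fold change -0.29, SE 0.23, 95% interval -0.78 to 0.20, adjusted p = 0.676). With single libraries left out, Upk3b ranged from -0.57 (without blebbistatin 2) to -0.22 (without control 1) and Upk1b from -0.44 (without blebbistatin 2) to -0.17 (without blebbistatin 6). For Upk1b, too, only blebbistatin 1 and 2 stood above the control median.

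The ratio of the uroplakin genes was steadier than either level. The count of Upk3b over that of Upk1b was 0.740 ± 0.112 with blebbistatin and 0.789 ± 0.131 in controls (SD, n = 8 each). Its range was 0.587 to 0.921 with blebbistatin and up to 1.06 in controls, while Upk3b itself spanned 4.72-fold with blebbistatin and 3.90-fold in controls.

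Mesothelin, the product of Msln, is a protein held to the membrane by a lipid anchor, and it binds the large mucin encoded by Muc16, known as the tumour antigen CA-125. Msln (ENSMUSG00000063011, chromosome 17, 25748613 to 25754378) ran from 77.9 through 253 to 610.1 CPM with blebbistatin and from 357 through 456 to 649 CPM in controls. In 7 of 8 blebbistatin explants it was below the lowest control, and explant 2 alone stood among the upper controls. The log2 fold change was -0.78 (SE 0.27, 95% interval -1.34 to -0.21), which did not pass over all genes (adjusted p = 0.220 by edgeR). Without blebbistatin 2 the log2 fold change was -1.06 and passed (SE 0.23, adjusted p = 0.0339 by edgeR). The other 25 alternatives gave no call, with adjusted p-values from 0.0711 (DESeq2) to 0.463 (edgeR with a Y-linked covariate).

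Muc16 was scarce. It ran from 0.0855 through 2.43 to 9.32 CPM with blebbistatin and from 1.89 through 6.98 to 15.3 CPM in controls. Blebbistatin 8 held 4 counts of it and blebbistatin 2 held 721, so the fit rested on few counts in some libraries. Its log2 fold change was -1.33 (SE 0.57, 95% interval -2.52 to -0.14, adjusted p = 0.337 by edgeR), with 1 of 8 blebbistatin explants above the control median. Under the identifier in the table Muc16 has no position in GENCODE M21, which lists the gene under another one.

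Lrrn4 encodes a membrane protein with leucine-rich repeats and Gpm6a a multi-pass glycoprotein of the proteolipid family, best known from neurons. Lrrn4 (ENSMUSG00000043110, chromosome 2, 132868305 to 132880891) ran from 452 through 934 to 2170.1 CPM with blebbistatin and from 629.9 through 1676 to 2513 CPM in controls. Only blebbistatin 1 exceeded the control median, and control 6 and control 2 lay as low as the lower blebbistatin explants (log2 fold change -0.56, SE 0.31, 95% interval -1.22 to 0.10, adjusted p = 0.501 by edgeR). Gpm6a (ENSMUSG00000031517, chromosome 8, 54954843 to 55060871) ran from 157 through 257 to 562 CPM with blebbistatin and from 196 through 320.3 to 425 CPM in controls. Blebbistatin 1 and 2 stood above every control and blebbistatin 6 below every control, and the group means were close (log2 fold change -0.029, SE 0.24, 95% interval -0.54 to 0.48, adjusted p = 0.976 by edgeR). That sign turned in 7 leave-one-out fits, with log2 fold changes up to 0.071.

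Rspo1 encodes a secreted R-spondin, which binds Lgr receptors and strengthens the response of a cell to Wnt ligands. Rspo1 (ENSMUSG00000028871, chromosome 4, 124986430 to 125009099) ran from 23.5 through 52.4 to 110.2 CPM with blebbistatin and from 34.0 through 61.4 to 92.3 CPM in controls. Blebbistatin 8 lay below and blebbistatin 2 above every control (log2 fold change -0.09, SE 0.26, 95% interval -0.63 to 0.45, adjusted p = 0.915 by edgeR). Its sign turned without blebbistatin 8, control 1 or control 3, with log2 fold changes of 0.028, 0.0011 and 0.015.

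Efemp1 encodes a fibulin, a secreted glycoprotein of the matrix that binds the protease inhibitor Timp3. Efemp1 (ENSMUSG00000020467, chromosome 11, 28853204 to 28926743) ran from 21.2 through 53.6 to 144 CPM with blebbistatin and from 39.5 through 116 to 236 CPM in controls. Only blebbistatin 2 exceeded the control median, and control 6 lay among the lower blebbistatin explants. The log2 fold change was -0.86 (SE 0.36, 95% interval -1.61 to -0.11, adjusted p = 0.323 by edgeR), and it did not pass under any of 26 alternatives, whose adjusted p-values ran from 0.0641 to 0.627.

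C3 encodes the central component of complement, the cascade of plasma proteins that tags surfaces for clearance. C3 (ENSMUSG00000024164, chromosome 17, 57203970 to 57228136) was the single gene of the 9 with a higher fitted level, running from 54.2 through 75.2 to 219.7 CPM with blebbistatin and from 36.6 through 72.8 to 116 CPM in controls. The group medians nearly coincided, and only blebbistatin 2 and 7 stood above every control (log2 fold change 0.57, SE 0.31, 95% interval -0.07 to 1.21, adjusted p = 0.473 by edgeR). Without blebbistatin 2 the log2 fold change was 0.32, and without blebbistatin 7 it was 0.38. Macrophages also express complement genes, and 12 of 14 macrophage markers were detected in all 16 libraries. Their summed level ran from 273 to 3870.0 CPM with blebbistatin and from 311 to 4603 CPM in controls, with an r to C3 of 0.20 with blebbistatin (rho 0.55, exact permutation p = 0.616 and 0.171, adjusted 0.762 and 0.457). In controls that r was 0.43 (rho 0.29, exact permutation p = 0.292 and 0.501, adjusted 0.498 and 0.734). Without the 2 farthest libraries r was 0.26 with blebbistatin and -0.72 in controls, so the sign in controls rested on those 2. With that level as a covariate C3 stayed uncalled, and the part of macrophages in C3 was not tested further.

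**Figure D2:**
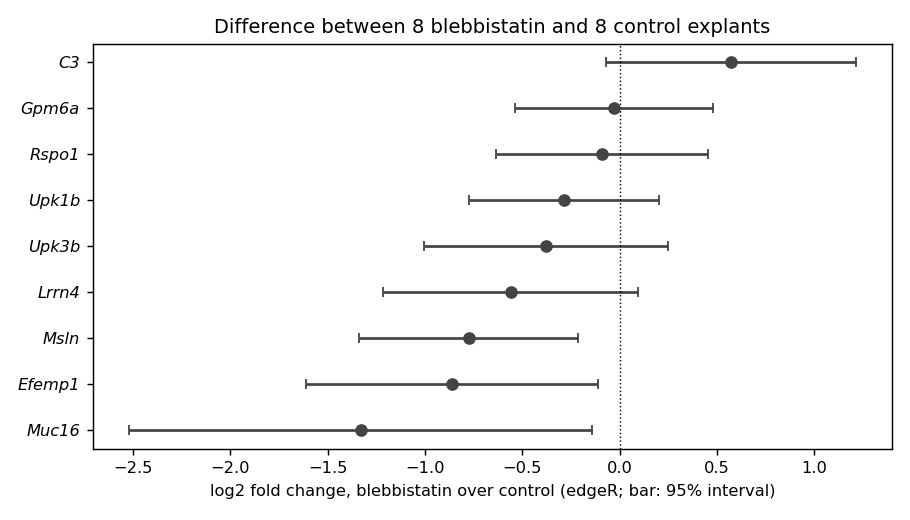
Log2 fold change of each gene, blebbistatin over control, with its 95% interval from edgeR (8 explants each). C3 is the single point right of 0, and the intervals of Msln, Efemp1 and Muc16 end left of 0, although none of the 3 passed after adjustment over all genes.

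In the whole table, 0.606% of 15675 tested genes (95) passed edgeR at an adjusted p under 0.05, and 0 of the 9 genes did. At an unadjusted p under 0.05 there were 3 of 9, Msln, Muc16 and Efemp1, where 12.2% of all genes (1911) reached that level. DESeq2 called 2.7% of all genes and limma voom 0.721%, and each called 0 of the 9. The 8 blebbistatin and 8 control libraries overlapped for all 9 genes, as they did for all but 0.242% of tested genes. The median log2 fold change was -0.38 over the 9 genes and 0.035 over all tested genes.

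The spread between explants was wide for genes of this level with blebbistatin, and for several of the genes in controls too. The SD of log2 CPM in the blebbistatin group was 0.77 for Upk3b, 0.74 for Lrrn4, 0.84 for Msln and 0.91 for Efemp1, against 0.61, 0.73, 0.29 and 0.77 in controls. For Upk1b it was 0.65 with blebbistatin and 0.41 in controls, and for Gpm6a it was 0.67 with blebbistatin and 0.37 in controls. The median over all tested genes was 0.54 with blebbistatin and 0.47 in controls, so that Msln, Gpm6a and Upk1b lay above it with blebbistatin and below it in controls. Set beside the 500 tested genes nearest in mean level, the SD of Upk3b exceeded 96.4% of them with blebbistatin and 98.0% in controls. For Efemp1 the shares were 98.0% with blebbistatin and 99.8% in controls, and for Upk1b they were 94.2% and, in controls, 90.6%. For Msln they were 98.0% with blebbistatin and 71.2% in controls, and for Gpm6a 96.2% with blebbistatin and 87.8% in controls.

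Each of the 9 genes had a larger SD with blebbistatin than in controls, and so had 64.0% of all tested genes. The ratio of the SDs ran from 1.02 for Lrrn4 to 2.91 for Msln. In a permutation test of the absolute deviations from the group medians, added after the values had been seen, 0 of the 9 genes had an unadjusted p under 0.05, where 4.12% of all genes did. For Msln the p was 0.221 (adjusted over all genes 1.00).

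**Figure D3:**
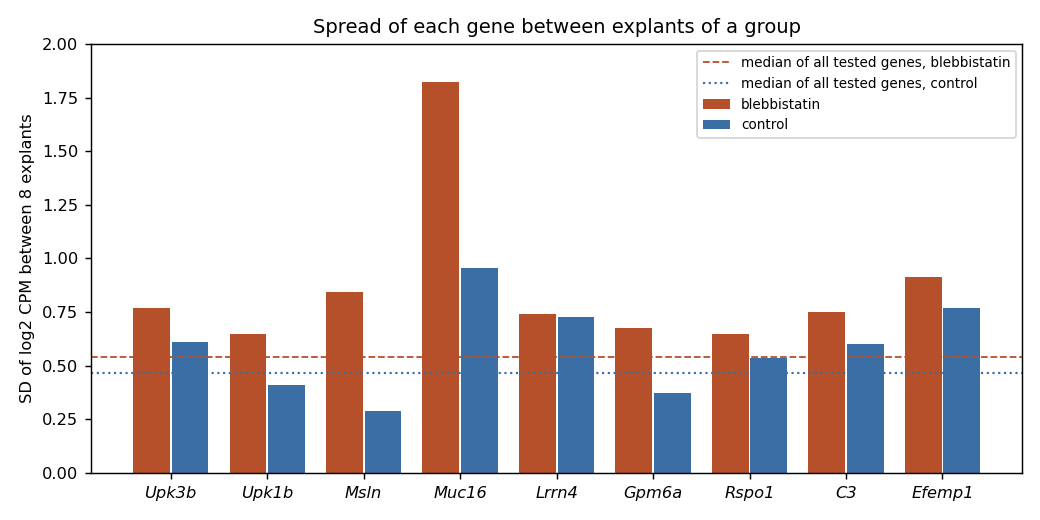
SD of log2 CPM between the 8 explants of each group (blebbistatin left, control right of each pair), with the median over all tested genes as a dashed line for blebbistatin and a dotted line for controls. The blebbistatin bar is the taller for all 9 genes, by the largest ratio for Msln at 0.84 with blebbistatin against 0.29 in controls. The difference in height is largest for Muc16, at 1.83 with blebbistatin against 0.95 in controls.

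The same explants were high or low for most of the 9 genes. With blebbistatin, explant 2 was the highest of its group for 8 of 9 genes and explant 6 the lowest for 6 of 9. Among controls, explants 1 and 8 were in the top 2 for 8 and 6 of 9 genes, and explant 6 was the lowest for 6 of 9. C3 was the exception, as control 6 held its highest control level, at 116 CPM. Blebbistatin 2 was also the deepest library, at 89620195 counts, and blebbistatin 6 among the shallowest, at 20326451 counts. Other libraries went otherwise. Blebbistatin 4, the shallowest at 20176386 counts, was the lowest for 0 of 9 genes (mean rank 4.33 of 8). Control 1, in the top 2 for 8 of 9, was the shallowest control at 27065611 counts.

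**Figure D4:**
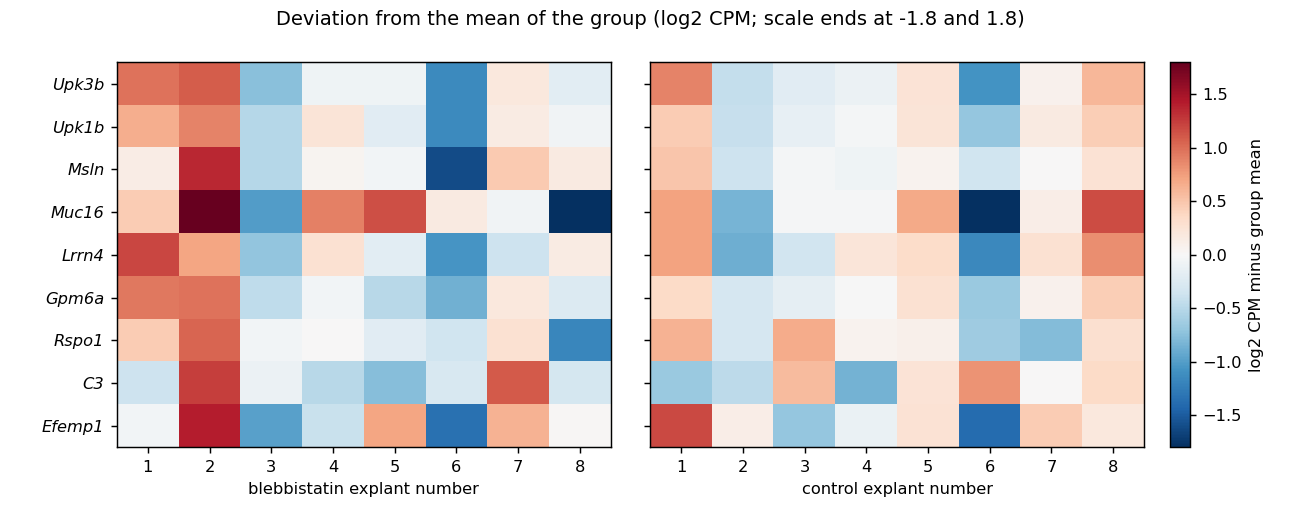
Deviation of log2 CPM from the group mean for each gene (rows) and explant (columns, numbered within blebbistatin on the left and control on the right), with red above and blue below the mean. Columns are largely of one colour, such as blebbistatin 2 (high for all 9 genes) and control 6 (low for 8 of 9, C3 being high).

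Correlations were computed on log2 CPM within each group of 8, with 198 relations in all, counting 36 pairs of genes and 63 relations to library measures in each group. The points of a pair of genes share the library and its scaling factor, whereas the library measures were not TMM-scaled. Upk3b and Upk1b had an r of 0.97 with blebbistatin (rho 0.95, exact permutation p = 0.000322 for r and 0.00114 for rho, adjusted 0.00625 and 0.0161). In controls r was 0.97 (rho 1.00, exact permutation p = 2.48e-05 for r and 4.96e-05 for rho, adjusted 0.00123 and 0.00246). Without the 2 libraries farthest from the median the r was 0.93 with blebbistatin and 0.98 in controls, so the relation did not rest on them. The pair ordered the 8 control explants identically.

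Gpm6a and Lrrn4 gave similar values with Upk1b. Upk1b and Gpm6a had an r of 0.94 with blebbistatin (rho 0.95, exact permutation p = 0.000347 and 0.00114, adjusted 0.00625 and 0.0161) and of 0.99 in controls (rho 0.98, exact permutation p = 4.96e-05 and 0.000397, adjusted 0.00164 and 0.00786). Without the 2 farthest libraries r was 0.92 with blebbistatin and 0.97 in controls. Upk1b and Lrrn4 had an r of 0.90 with blebbistatin (rho 0.90, exact permutation p = 0.00288 and 0.00456, adjusted 0.0300 and 0.0476) and of 0.98 in controls (rho 0.98, exact permutation p = 4.96e-05 and 0.000397, adjusted 0.00164 and 0.00786), with 0.89 for blebbistatin and 0.95 for controls once the 2 farthest libraries were left out. The pairs of Lrrn4 with Upk3b and Gpm6a were looser with blebbistatin by rank. Upk3b and Lrrn4 had an r of 0.91 there (rho 0.81, exact permutation p = 0.00357 and 0.0218, adjusted 0.0354 and 0.117, r 0.86 without the 2 farthest). Lrrn4 and Gpm6a had an r of 0.87 (rho 0.79, exact permutation p = 0.00503 and 0.0279, adjusted 0.0433 and 0.138, r 0.71 without the 2 farthest).

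For Msln the r with Upk3b was 0.86 with blebbistatin (rho 0.81, exact permutation p = 0.00414 and 0.0218, adjusted 0.0377 and 0.117) and 0.94 in controls (rho 0.95, exact permutation p = 0.00114 for each, adjusted 0.0161). Without the 2 farthest libraries r was 0.61 with blebbistatin and 0.94 in controls, so the relation in the blebbistatin group rested in part on them. Muc16 and Upk3b had an r of 0.41 with blebbistatin (rho 0.57, exact permutation p = 0.317 and 0.151, adjusted 0.532 and 0.421, r 0.33 without the 2 farthest) and of 0.94 in controls (exact permutation p = 0.000471, rho 0.98, exact permutation p = 0.000397, adjusted 0.00718 and 0.00786, r 0.97 without the 2 farthest). Whether these correlations differ between the groups was not tested.

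Over the 36 pairs, all r were positive with blebbistatin and 28 in controls, with medians of 0.62 with blebbistatin and 0.78 in controls. After adjustment 9 of 36 passed with blebbistatin and 15 of 36 in controls. The 8 negative values in controls were those of C3, from -0.65 with Efemp1 to -0.15 with Rspo1, and none of them passed. For C3 and Efemp1 in controls the exact permutation p was 0.0791 for r and 0.216 for rho (-0.50), adjusted 0.249 and 0.535, with r -0.73 without the 2 farthest. Left without their 2 farthest libraries, the control values of C3 turned positive with Upk3b (0.47), Rspo1 (0.34) and Muc16 (0.14) and stayed negative with the other 5. Rspo1 had no pair that passed in either group. Of the relations to total counts, mitochondrial share and the summed markers of macrophages, fibroblasts and mural cells, cardiomyocytes, endothelium and epicardium, 0 passed after adjustment. The nearest were Efemp1 with macrophage markers in controls (r -0.85, rho -0.83, exact permutation p = 0.00682 and 0.0154, adjusted 0.0527 and 0.0982) and Muc16 with epicardial markers in controls (r 0.86, rho 0.83, exact permutation p = 0.00692 and 0.0154, adjusted 0.0527 and 0.0982). Without the 2 farthest libraries r was -0.32 for Efemp1 and 0.84 for Muc16. In controls Gpm6a, Upk1b and Upk3b also had r of -0.83, -0.80 and -0.79 to macrophage markers (exact permutation p = 0.00920, 0.0171 and 0.0186, adjusted 0.0628, 0.0965 and 0.0981), and -0.56, -0.57 and -0.51 without the 2 farthest. Upk3b and total counts had an r of 0.59 with blebbistatin (rho 0.33, exact permutation p = 0.119 and 0.428, adjusted 0.303 and 0.667, r 0.46 without the 2 farthest).

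**Figure D5:**
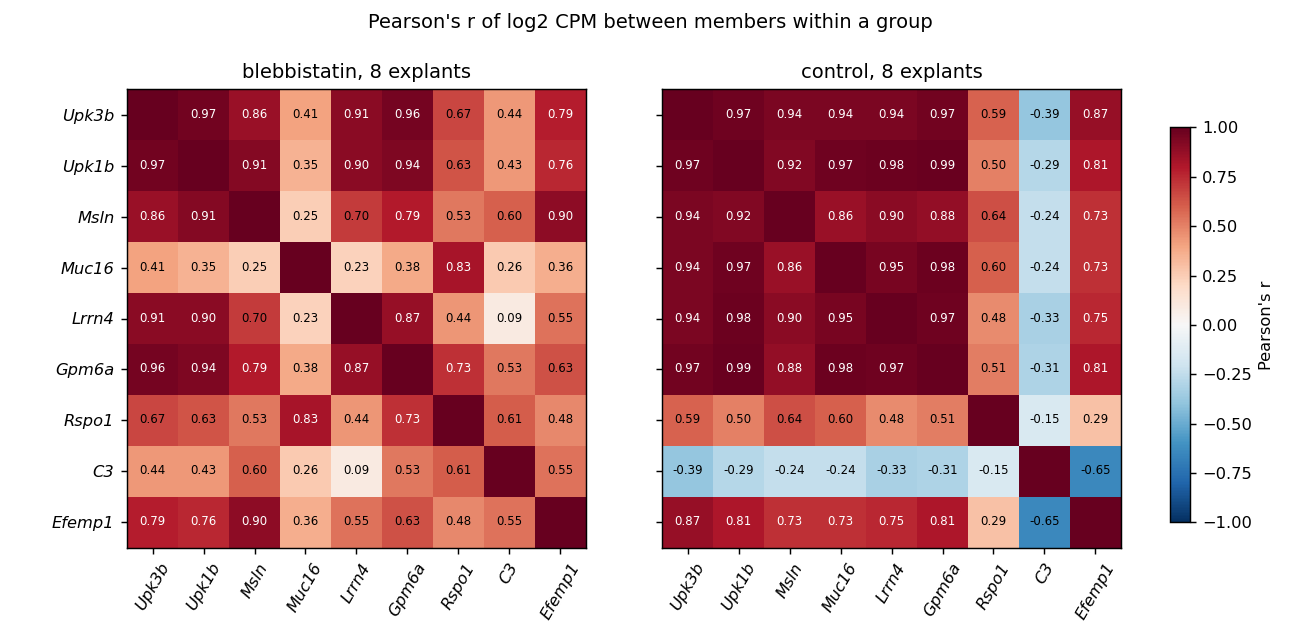
Pearson's r of log2 CPM for each pair of genes over 8 blebbistatin explants (left) and 8 control explants (right), from blue at -1 to red at 1. Upk3b, Upk1b, Lrrn4 and Gpm6a form a block with r of at least 0.87 in both panels, while the C3 row runs from 0.09 to 0.61 on the left and is negative on the right.

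Over all 16 libraries with the group means removed, Upk3b had an r of 0.96 with Upk1b, 0.95 with Gpm6a and 0.92 with Lrrn4. Of the other 15674 tested genes these stood at places 3, 4 and 5 in likeness to Upk3b, where 0.0447% of genes exceeded an r of 0.9 and the median r was near 0. The genes at places 1 and 2 were Ezr (r 0.98), which encodes ezrin, a linker of microvilli to actin, and Smpd3 (0.97), a sphingomyelinase. Ezr averaged 519 ± 175 CPM with blebbistatin, against 603 ± 157 CPM in control explants (adjusted p = 0.723 by edgeR). Smpd3 averaged 144 ± 93.2 CPM with blebbistatin against 237 ± 112 CPM without it (adjusted p = 0.441). Msln was at place 50, Efemp1 at 57, Rspo1 at 572, Muc16 at 1075 and C3 at 6115.

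Genes most like the mean of the 9 were again Ezr and Smpd3 (r 0.93 each over 16 libraries), followed by Chmp4c (0.89), the protease inhibitor Timp2 (0.88) and the proprotein convertase Pcsk6 (0.87). Those most like Msln were Vat1l (0.90) and the sulfatase Sulf1 (0.89). Those most like C3 were the adhesion receptor Adgrd1 and the complement protease C1s2, each at 0.89. These are descriptions of likeness without a test, picked as the highest among all genes.

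Other genes used to mark mesothelium and epicardium gave no call by edgeR and 4 by DESeq2. Of 30 listed, 26 were in the table, 0 passed edgeR in either direction and 8 had an unadjusted p under 0.05, with a median log2 fold change of -0.15. Of all tested genes 12.2% reached that unadjusted level by edgeR, and their median log2 fold change was 0.035. DESeq2 called 1 higher, the zinc finger gene Bnc2, and 3 lower, Krt19, Tbx18 and Krt18, where it called 2.7% of all genes. Bnc2 averaged 15.3 ± 4.21 CPM with blebbistatin, against 7.88 ± 2.58 CPM in control explants (adjusted p = 0.0593 by edgeR). The simple keratin Krt19 had 12.1 ± 6.37 CPM with blebbistatin against 30.5 ± 13.6 CPM without it (adjusted p = 0.0593) and Krt18 had 7.90 ± 4.64 CPM with blebbistatin against 20.9 ± 8.39 CPM without it (adjusted p = 0.157). The epicardial factor Tbx18 averaged 31.4 ± 6.69 CPM with blebbistatin, against 50.3 ± 13.3 CPM in control explants (adjusted p = 0.0794). Each of these 4 lay on 1 side of the control median in 8 of 8 blebbistatin explants. They were named because DESeq2 called them in the same libraries, so this follows in part from the choice. Some genes of the list that were not called did so too.

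Among relatives of the surface genes, 1 fell. Lrrn1, a paralog of Lrrn4, fell to 4.37 ± 2.30 CPM with blebbistatin, against 14.3 ± 5.67 CPM in controls (log2 fold change -1.70, SE 0.36, adjusted p = 0.0359 by edgeR, below the control median in 8 of 8 explants). It kept its direction in all 26 alternatives but lost its call in 15 of them, with adjusted p-values from 0.000376 to 0.120. Among these were the fits without blebbistatin 4, 6, 7 or 8 and without any 1 control but control 6. Lrrn3 had 2.32 ± 1.65 CPM with blebbistatin against 0.631 ± 0.445 CPM without it (adjusted p = 0.105), and Gpm6b, a close relative of Gpm6a, had 5.23 ± 2.30 CPM with blebbistatin against 9.20 ± 2.91 CPM without it (adjusted p = 0.233). All 6 genes of that list were tested, with 1 lower, 0 higher and 5 not called. Of 10 other uroplakins and tetraspanins, 5 were tested and 0 passed (0 at an unadjusted p under 0.05), with Cd81 at 746 ± 114 CPM with blebbistatin, against 863 ± 165 CPM in control explants (adjusted p = 0.567). Upk1a, Upk2, Upk3a and Upk3bl were not analysed here. Of 8 listed membrane mucins 3 were tested and 0 passed (0 at an unadjusted p under 0.05), and Sbsn was the 1 tested gene of 6 neighbours of dermokine and like secreted proteins (adjusted p = 0.902). None of the 3 relatives of mesothelin was analysed.

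The partners of the secreted proteins were not called by edgeR or limma voom. DESeq2 called none of those it adjusted and gave no adjusted p for 4 of them, among them Rspo2 (unadjusted p = 0.000154). Of 10 tested genes of the R-spondin pathway 0 passed and 2, Rspo2 and Lgr6, had an unadjusted p under 0.05. The share over all tested genes was 12.2%, to be set beside this count and those of the next lists. Rspo2, a paralog of Rspo1, was scarce at 3.35 ± 3.29 CPM with blebbistatin, against 0.237 ± 0.391 CPM in control explants (adjusted p = 0.128), above the control median in 8 of 8 explants. The receptor gene Lgr4 had 8.04 ± 1.62 CPM with blebbistatin against 10.2 ± 2.42 CPM without it (adjusted p = 0.540) and Lgr6 had 7.29 ± 5.49 CPM with blebbistatin against 4.05 ± 1.61 CPM without it (adjusted p = 0.406). Of 18 tested complement genes 0 passed and 13 had a positive log2 fold change (median 0.20), as had 8475 of all 15675 tested genes. Among the 18, 1 had an unadjusted p under 0.05. Serping1, the inhibitor of the first complement protease, was that gene, abundant at 1333 ± 427 CPM with blebbistatin, against 903 ± 287 CPM in control explants (adjusted p = 0.320). Of 9 tested fibulins and elastic fibre partners 0 passed and 3 had an unadjusted p under 0.05. Of these Fbln5 had 66.8 ± 33.8 CPM with blebbistatin against 108 ± 27.2 CPM without it (adjusted p = 0.248). Fbln2 had 703 ± 496 CPM with blebbistatin against 1288 ± 373 CPM without it (adjusted p = 0.296), and Timp3 had 1526 ± 520 CPM with blebbistatin against 2097 ± 287 CPM without it (adjusted p = 0.296).

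Markers of other cell types gave no group difference that passed after adjustment over the 10 library measures. Fibroblast and mural markers summed to 5825 ± 1464 CPM with blebbistatin, against 6912 ± 949 CPM in control explants (exact permutation p = 0.0987, adjusted 0.244). Most of that sum was Col1a1, at 3075 ± 1275 CPM with blebbistatin against 3983 ± 912 CPM without it (adjusted p = 0.560 by edgeR). Pdgfra, a receptor of fibroblasts, went the other way, at 221 ± 58.7 CPM with blebbistatin against 125 ± 39.2 CPM without it, and was called by DESeq2 (adjusted p = 0.00472) and limma voom (0.0462) but not by edgeR (0.0555). Lum had 170.4 ± 65.6 CPM with blebbistatin against 97.9 ± 46.7 CPM without it (adjusted p = 0.237 by edgeR). Thy1 was lower, at 66.1 ± 38.1 CPM with blebbistatin against 109 ± 15.1 CPM without it (adjusted p = 0.295 by edgeR). Col3a1 was lower too, at 934 ± 299 CPM with blebbistatin against 1261 ± 199 CPM without it (adjusted p = 0.327 by edgeR). Of the 10 tested fibroblast and mural markers 4 had a positive log2 fold change. Summed cardiomyocyte markers, mostly Tnnt2, were 948 ± 161 CPM with blebbistatin against 647 ± 225 CPM without it (exact permutation p = 0.0103, adjusted 0.0513). Endothelial markers were low at 32.9 ± 12.7 CPM with blebbistatin against 41.3 ± 11.0 CPM without it (exact permutation p = 0.180, adjusted 0.299), and macrophage markers were 1217 ± 1197 CPM with blebbistatin against 1336 ± 1455 CPM without it (exact permutation p = 0.841, adjusted 0.841). Of that list 12 of 13 tested genes had a positive log2 fold change (median 0.41, 0 called), as had 8475 of all 15675 tested genes. Lyz2, the most abundant of the 13, had a negative one, at 712 ± 590 CPM with blebbistatin against 954 ± 1091 CPM without it. Epicardial markers outside the 9 genes summed to 571 ± 79.3 CPM with blebbistatin against 679 ± 109 CPM without it (exact permutation p = 0.0412, adjusted 0.137). Their part in the levels of the 9 genes was not tested.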

How the data were processed

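RNA of 8 blebbistatin and 8 control explants was amplified with an Ovation kit and made into Nextera XT libraries, per the labels' protocols. The authors deposited raw read counts per gene, 1 column per explant. The submitters' processing notes name HTSeq 0.6.1p1, edgeR, SAMtools 1.3, TopHat2 2.1.0 and Bowtie2 2.2.6.0, and build mm10 (GRCm38). The sources used here give neither their roles nor the annotation release and strand setting, so reads of overlapping genes may be counted together. Gpm6a, Rspo1, C3 and, where GENCODE M21 places it, Muc16 overlap other annotated genes, none of which has a row in the table. Each deposited gene exceeded 1 CPM in at least 4 libraries, as tested on the table. Positions and exon lengths are those of GENCODE M21.

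Counts were scaled by TMM and filtered with filterByExpr (15675 of 15805 genes kept). Groups were compared by the quasi-likelihood test of edgeR 4.0.16 in R 4.3.3 (robust, no term but group), with p-values adjusted by Benjamini and Hochberg's method over the whole table at 0.05. The test was tried on simulated data. Log2 CPM used a prior count of 2. Correlations used all pairings of 8 libraries, and library measures all 12870 splits into 8 and 8. No 2 libraries of a group were alike within sampling noise (the closest, control 7 and 8, differed by a chi-square over degrees of freedom of 48.9). Alternatives were DESeq2 1.42.0, limma voom 3.58.1, other size factors and filters, mitochondrial genes left out, a replicate block, covariates and libraries left out.

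The test of spread, the comparison with genes of like level, the motifs and the SD of Msln without 1 or 2 libraries were added after the values had been seen.

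The members and gene lists were chosen with earlier results of these data known. The 9 members present are all named. Of each other list, called genes and up to 4 of smallest p could be named, further the 5 genes most like the mean of the members and the 2 most like Upk3b, Msln and C3.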

Additional observations from a re-analysis of the deposited data

Results flagged for a closer look

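In each gene and group of 8 explants, the gap from the highest or lowest explant to its neighbour was set against the whole range (Dixon's test at its 95% critical value for 8 samples). Of 18 such groups 2 stood out. The nominal rate of 1 in 20 assumes independent values of normal distribution. Here CPM were used without logarithm, and the groups share libraries and hold genes that vary together. That rate therefore cannot be set beside the count. Msln in blebbistatin 2 was 610.1 CPM, with the next explant at 329.9 CPM and a gap of 0.527 of the range. Muc16 in the same explant was 9.32 CPM, with the next at 4.38 CPM and a gap of 0.535.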

How the results depend on the processing

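Over 26 alternatives 0 of the 9 genes passed, except without blebbistatin 2, where 1 did (Msln), so that the count ran from 0 to 1 as single libraries were left out. Upk3b, Upk1b, Msln, Muc16, Lrrn4, C3 and Efemp1 kept their direction throughout, though Muc16 could not be tested with at least 5 CPM in 8 libraries. Leaving out single libraries gave Gpm6a log2 fold changes from -0.20 to 0.071 and Rspo1 from -0.30 to 0.028. Gpm6a turned positive without blebbistatin 3, 5, 6 or 8 (0.040, 0.044, 0.071 and 0.024) and without control 1, 5 or 8 (0.022, 0.0090 and 0.040). Rspo1 did so without blebbistatin 8 (0.028), control 1 (0.0011) or control 3 (0.015). The count over the whole table, 95, ran from 44 to 206 as single libraries were left out, at 62 or below without blebbistatin 6 or 8 or control 1, 2, 4, 7 or 8, and at 180 or above without blebbistatin 5 or control 6. It was 170 with the stricter filter, 424 with DESeq2, 264 with a macrophage covariate and 22 with a Y-linked covariate. With the replicate number as a block it was 177, and 0 of the 9 genes passed. Of 8 same-numbered pairs, 4 correlated above 0.1 (all between 0.004 and 0.28) and 2 correlated best with their own number. These values cannot decide whether the numbers pair the samples, and no label says so. With DESeq2, 1 of the other mesothelial genes was higher and 3 lower, 2 cardiomyocyte markers and 1 fibroblast marker were higher. With limma voom 1 fibroblast marker was higher and 0 of the relatives of Lrrn4 and Gpm6a were lower. The cause of these shifts was not tested. The SD of Msln with blebbistatin, 0.84, was 0.69 without blebbistatin 2 and 0.32 without 2 and 6, its highest and lowest explants, which were picked after their values had been seen, so a smaller SD follows from the choice. A prior count of 0.5 moved no SD by more than its error. Counting error bears most on Muc16, which had 4 counts in blebbistatin 8, a library of 48337473 counts.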
